A study of Mus musculus with 8 samples.

Results

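Oligodendrocytes are the myelinating glia of the brain. The 35 genes described here mark that lineage, from the precursor to the myelin sheath, in the dorsal dentate gyrus of wild-type mice and mice lacking Cav3.1, a T-type calcium channel. They were chosen by symbol: a probe was taken if its gene in the platform annotation was one of the 35. Where a gene had more than 1 probe, the probe with the highest mean spot intensity over all 8 arrays was kept. All 35 genes were found, out of 19321 gene symbols on the array, and all 35 passed the filter on dim probes.

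The samples were total RNA from male C57BL/6J mice, 8 to 12 weeks old, with 4 arrays from wild-type animals (WT) and 4 from Cav3.1 KO animals. Both groups carry the same strain label, and the labels do not describe how the Cav3.1 allele was made or which cells lack it. Each array was a single-colour TORAY chip read in Cy5. The labels speak of brain slices and do not state 1 animal for each array. The p-values therefore cover the spread among these samples only, and that spread may be technical. In whole tissue, fewer oligodendrocytes and less RNA per oligodendrocyte cannot be told apart.

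Oligodendrocytes arise from dividing precursors that carry the receptor PDGFRA and the proteoglycan NG2 and depend on the transcription factors OLIG2 and SOX10. Cells that leave the cycle pass through a short premyelinating stage, marked by GPR17, BCAS1 and ENPP6, and then switch on the myelin programme under MYRF. Mature cells make large amounts of a few proteins, such as myelin basic protein, together with the galactolipids of the sheath. In the hippocampus, precursors are scattered through the dentate gyrus, whereas myelin is densest in the neighbouring fibre tracts.

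The upstream sequences of 4 members are shown, because the values of the first pair separated the groups, Opalin had the widest spread between arrays, and Mobp held the most motif matches. Each is the 250 bases before the RefSeq transcription start in GRCm38.p6, read 5′ to 3′ on the strand of the gene, in lower case. Capitals mark the SOX-type hexamers AACAAT and ACAAAG, the E-boxes CAGCTG and CATATG and the TATA-type hexamer TATAAA, searched on both strands with overlapping matches counted.
Pdgfra, chr5:75152001-75152250, plus strand: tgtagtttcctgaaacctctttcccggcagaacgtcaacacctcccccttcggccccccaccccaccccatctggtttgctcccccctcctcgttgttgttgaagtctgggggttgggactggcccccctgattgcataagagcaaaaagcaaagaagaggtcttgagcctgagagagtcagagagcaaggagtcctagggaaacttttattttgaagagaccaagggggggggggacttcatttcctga
Qdpr, chr5:45450230-45450479, minus strand: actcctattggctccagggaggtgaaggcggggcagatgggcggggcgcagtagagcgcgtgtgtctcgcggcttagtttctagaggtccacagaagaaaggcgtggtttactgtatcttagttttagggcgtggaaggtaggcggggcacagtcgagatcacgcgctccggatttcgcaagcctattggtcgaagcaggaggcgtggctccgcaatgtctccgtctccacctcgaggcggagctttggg
Opalin, chr19:41077114-41077363, minus strand: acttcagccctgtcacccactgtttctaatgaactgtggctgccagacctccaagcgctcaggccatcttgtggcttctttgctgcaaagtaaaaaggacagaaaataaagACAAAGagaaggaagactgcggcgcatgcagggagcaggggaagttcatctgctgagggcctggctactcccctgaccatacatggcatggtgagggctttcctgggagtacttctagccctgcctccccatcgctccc
Mobp, chr9:120149492-120149741, plus strand: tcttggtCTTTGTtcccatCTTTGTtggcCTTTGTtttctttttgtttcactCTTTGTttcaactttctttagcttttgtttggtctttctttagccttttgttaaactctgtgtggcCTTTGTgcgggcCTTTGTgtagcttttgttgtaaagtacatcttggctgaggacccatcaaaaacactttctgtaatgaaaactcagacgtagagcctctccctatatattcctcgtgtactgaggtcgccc

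The Mobp window held 6 copies of ACAAAG or its complement and the Opalin window 1, while the Pdgfra and Qdpr windows held none of the 5 motifs. The RefSeq promoter table had 28 windows for 25 of the 35 members. ACAAAG was present in 7 of those 28 windows (25.0%) and in 16.5% of all 32851 windows. AACAAT was present in 4 (14.3%) against 9.42%, CAGCTG in 3 (10.7%) against 13.0%, CATATG in 2 (7.14%) against 3.46%, and TATAAA in 2 (7.14%) against 12.4%. These counts are of windows and not of genes. The same ACAAAG match upstream of Mag was counted in 2 overlapping windows, and both CATATG windows belonged to Tspan2. The median GC content of the members' windows was 57.2%, against 52.4% over all windows. A match is a description of the letters in the window and not a binding site.

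Across probes, pairs of arrays gave r of 0.992 to 0.997. Mean blank-spot intensities ran from 53.0 to 63.4, and at least 85.4% of probes were detected on an array. The targeted gene, Cacna1g, read 6.43, 6.61, 6.53 and 6.61 on WT replicates 1 to 4 and 6.55, 6.43, 6.39 and 6.48 on Cav3.1 KO replicates 1 to 4, with a limma adjusted p of 0.818. The groups overlapped. No source used here places its probe inside or outside the deletion, so these values do not check the genotype. The arrays fell into technical classes in 2 ways. WT replicate 3 and Cav3.1 KO replicate 4 carried chip numbers apart from the other 6. The line between scanner gains 1 and 3 in the file headers had a slope of 0.244 to 0.247 on WT replicates 1, 2 and 4 and Cav3.1 KO replicate 1, and of 0.235 to 0.236 on WT replicate 3 and Cav3.1 KO replicates 2, 3 and 4, so these gain classes were unevenly divided between the genotypes. Values below are log2 intensities after normalization, and a positive difference means higher in Cav3.1 KO.

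No member of the lineage passed the test between the genotypes. Of 35 genes, 12 were higher in Cav3.1 KO, where 49.3% of all probes were, and 23 were lower. At an adjusted p of 0.05 (limma, Benjamini-Hochberg over 21204 probes) 0 passed, against 0.288% of all probes tested, 0.198% as higher and 0.0896% as lower. Before adjustment, 6 members had a limma p under 0.05, where 8.08% of all probes did. The smallest adjusted p of a member was 0.266. The median difference of the 35 was -0.0416, against -0.000775 over all probes. The medians of the precursor and differentiating lists were above 0 and those of the myelin and lipid lists below it, and the difference between the lists was not tested. Between the groups, 1 member did not overlap with Cav3.1 KO higher (2.42% of all probes) and 2 with Cav3.1 KO lower (2.53%). Those 3 were Pdgfra, Qdpr and Fa2h.

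**Figure D1:**
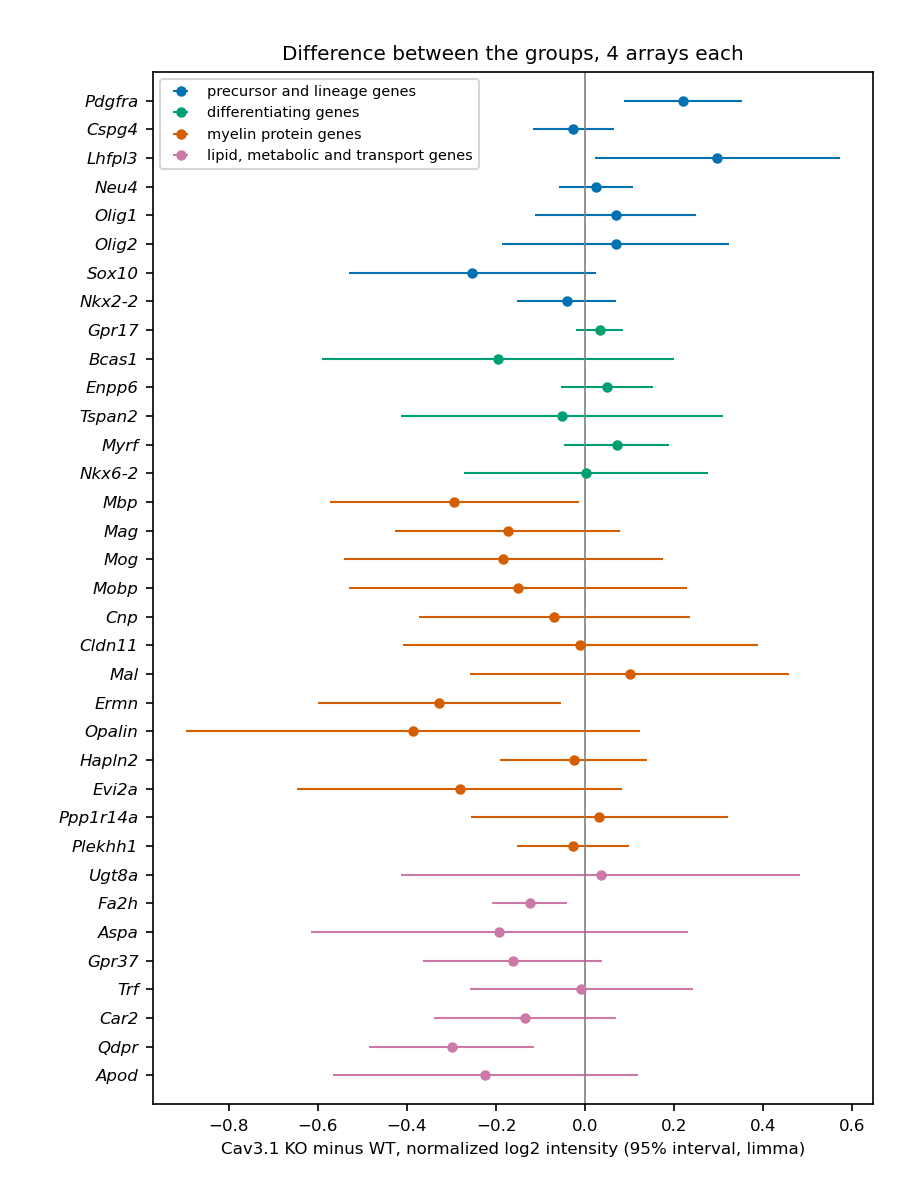
Difference between Cav3.1 KO and WT in normalized log2 intensity for each of the 35 members (points, 4 arrays a group) with limma's 95% interval (bars), coloured by role. Most intervals include 0, and 11 of the 13 myelin protein genes lie to the left of it.

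Among the precursor and lineage genes, 5 of 8 were higher in Cav3.1 KO, 0 passed the test, and the median difference was 0.0467. Pdgfra encodes the receptor for platelet-derived growth factor that drives precursor division, and is also expressed by meningeal fibroblasts. It read 8.15, 7.99, 8.07 and 8.18 on WT replicates 1 to 4, and 8.20, 8.42, 8.31 and 8.33 on Cav3.1 KO replicates 1 to 4. Every Cav3.1 KO array was above every WT array, although WT replicate 4 and Cav3.1 KO replicate 1 were nearly level. The difference was 0.22 (SE 0.0574, 95% interval 0.09 to 0.35), or 1.16-fold, and did not pass limma (adjusted p 0.266). The exact two-sided permutation p was 0.0286, which is the floor for 2 groups of 4. The Pdgfra difference was 0.21 among the 6 arrays of the first chip numbers and 0.26 between the other 2. Within the steeper and the shallower gain class this difference was 0.09 and 0.29.

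Of 10 meningeal fibroblast markers, all detected on 8 of 8 arrays, 8 were lower in Cav3.1 KO and 2 higher. Their mean ran from 6.75 to 7.13 in WT and from 6.68 to 6.97 in Cav3.1 KO, and 0 passed the test. The part of fibroblasts in the Pdgfra values was not tested. Pdgfc, a ligand of the receptor, differed by 0.12 (SE 0.0334, limma adjusted p 0.284), with every Cav3.1 KO array above every WT array. Its probe was dim, with a lowest spot of 1.52 times the mean blank spot. Of the 16 ligands, receptors and brakes measured, 1 separated the groups with Cav3.1 KO higher (2.42% of all probes). In the other direction 1 did so (2.53%). Pdgfa, the ligand known for its action on precursors, differed by -0.05 (SE 0.0528, adjusted p 0.944).

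Lhfpl3, a tetraspan membrane protein gene enriched in precursors, read 7.38, 7.28, 7.10 and 7.02 in WT and 7.38, 7.68, 7.67 and 7.23 in Cav3.1 KO. Cav3.1 KO replicates 2 and 3 were above all other arrays, and replicate 1 was level with the highest WT array, and replicate 4 lay within the WT range. The difference of 0.30 (SE 0.12) had a limma p of 0.0377 before and 0.577 after adjustment. It was 0.11 without those 2 arrays.

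Sox10, the transcription factor gene used at every stage of the lineage, had the most negative difference of the 8. It read 8.13, 7.78, 8.08 and 8.08 in WT and 7.54, 8.05, 7.81 and 7.64 in Cav3.1 KO. On 3 of 4 WT arrays it was above all Cav3.1 KO arrays, but WT replicate 2 lay among them. The difference was -0.25 (SE 0.121, limma adjusted p 0.678, exact permutation p 0.143). Olig1 and Olig2, the basic helix-loop-helix factors that specify the lineage, both differed by 0.07 (SE 0.0786 and 0.111). Olig1 was highest on Cav3.1 KO replicate 2, at 9.45, where Olig2 was also highest, at 7.76. Cspg4, which encodes NG2 and is also expressed by pericytes, differed by -0.03 (SE 0.0394), the sialidase gene Neu4 by 0.02 (SE 0.036) and the homeobox gene Nkx2-2 by -0.04 (SE 0.0481). The probes of these last 3 were dim, with lowest spots of 1.43, 1.25 and 1.44 times the mean blank spot, and such a probe can show only part of a change.

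Genes of differentiating cells gave no common direction. Of 6, 4 were higher and 2 lower, 0 passed the test, and the median difference was 0.0179. Bcas1, a marker of newly myelinating cells, read 9.93, 9.32, 9.52 and 9.33 in WT and 9.05, 9.53, 9.60 and 9.13 in Cav3.1 KO. Its difference was -0.20 (SE 0.172, limma adjusted p 0.93). The groups overlapped widely, with WT replicate 1 highest and Cav3.1 KO replicate 1 lowest. Tspan2, a tetraspanin of early myelinating cells, was spread most within Cav3.1 KO, from 7.50 on replicate 1 to 8.32 on replicate 2, around a WT range of 7.73 to 7.97.

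The homeobox gene Nkx6-2, active in maturing cells, differed by 0.00 (SE 0.119). Myrf, the transcription factor that switches on myelin genes, differed by 0.07 (SE 0.0509) and was highest on Cav3.1 KO replicate 4, at 6.45, where the myelin genes were mostly low. The Myrf probe was dim, with a lowest spot of 1.37 times the mean blank spot. The choline phosphodiesterase gene Enpp6 and the receptor gene Gpr17, which mark the premyelinating stage, differed by 0.05 (SE 0.045) and 0.03 (SE 0.023). Their lowest spots were 1.21 and 1.12 times the mean blank spot, whereas Bcas1 was bright, at 7.93 times.

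Genes of the myelin protein list, not all of which encode proteins of the sheath, were mostly lower in Cav3.1 KO, and none passed the test. Of 13, 11 were lower and 2 higher, where 49.3% of all probes were higher, and the median difference was -0.15. Their mean was 9.66, 9.57, 9.58 and 9.38 on WT replicates 1 to 4 and 9.29, 9.68, 9.46 and 9.21 on Cav3.1 KO replicates 1 to 4. The highest array of all was thus Cav3.1 KO replicate 2, and the lowest were Cav3.1 KO replicates 4 and 1. WT arrays averaged 9.55 ± 0.122 (SD, n = 4), and Cav3.1 KO arrays averaged 9.41 ± 0.207 (SD, n = 4).

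Ermn, which encodes the cytoskeletal protein ermin of the mature oligodendrocyte, read 8.68, 8.64, 8.64 and 8.37 in WT and 8.14, 8.56, 8.31 and 8.02 in Cav3.1 KO. WT replicate 4 and Cav3.1 KO replicate 2 were the arrays that made the groups overlap. The difference was -0.33 (SE 0.119, 95% interval -0.60 to -0.05), or 0.797-fold (limma adjusted p 0.492, exact permutation p 0.0571). Mbp encodes myelin basic protein, which compacts the sheath. It read 11.47, 11.79, 11.55 and 11.26 in WT and 11.22, 11.44, 11.23 and 11.01 in Cav3.1 KO, or -0.29 between the group means (SE 0.122, limma adjusted p 0.589, exact permutation p 0.0571). Again WT replicate 4 lay among the Cav3.1 KO arrays.

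Opalin, a transmembrane protein gene of mature oligodendrocytes, had the widest spread of all members. It read 10.74, 10.12, 10.52 and 10.22 in WT and 9.52, 10.42, 10.32 and 9.79 in Cav3.1 KO. Cav3.1 KO replicates 1 and 4 were the lowest arrays, while replicates 2 and 3 lay inside the WT range. Its difference of -0.39 was the most negative among the 35 members but had an SE of 0.222 (limma adjusted p 0.781). Evi2a, a membrane protein gene enriched in oligodendrocytes, differed by -0.28 (SE 0.159, adjusted p 0.769).

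The classical sheath genes overlapped between the groups. Mog, the glycoprotein on the outer face of myelin, read 9.69, 9.80, 9.78 and 9.57 in WT and 9.37, 9.99, 9.55 and 9.18 in Cav3.1 KO, so both the highest and the lowest array were Cav3.1 KO. Its difference was -0.18 (SE 0.155), and a second, dimmer Mog probe gave -0.17 (SE 0.137). The second probe of Ermn gave -0.08 (SE 0.0832). The differences were -0.17 (SE 0.11) for Mag, the glycoprotein of the inner, axon-facing membrane, and -0.15 (SE 0.165) for Mobp, a basic protein of compact myelin. Cnp, the cyclic nucleotide phosphodiesterase of myelin cytoplasm, differed by -0.07 (SE 0.132), and was highest on Cav3.1 KO replicate 2, at 11.24, with the other Cav3.1 KO arrays at 10.65 to 10.67, below all WT arrays.

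The claudin gene Cldn11, whose product seals the layers of the sheath, differed by -0.01 (SE 0.173) and the raft proteolipid gene Mal by 0.10 (SE 0.156). Both were highest on Cav3.1 KO replicate 2, at 10.06 and 11.98. Hapln2, a link protein of nodes of Ranvier, differed by -0.03 (SE 0.0718), as did Plekhh1 (SE 0.0548). The Plekhh1 probe was dim, with a lowest spot of 1.24 times the mean blank spot. Ppp1r14a, an inhibitor of myosin phosphatase, differed by 0.03 (SE 0.126) and was the 1 myelin gene highest on Cav3.1 KO replicate 1, at 8.98.

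**Figure D2:**
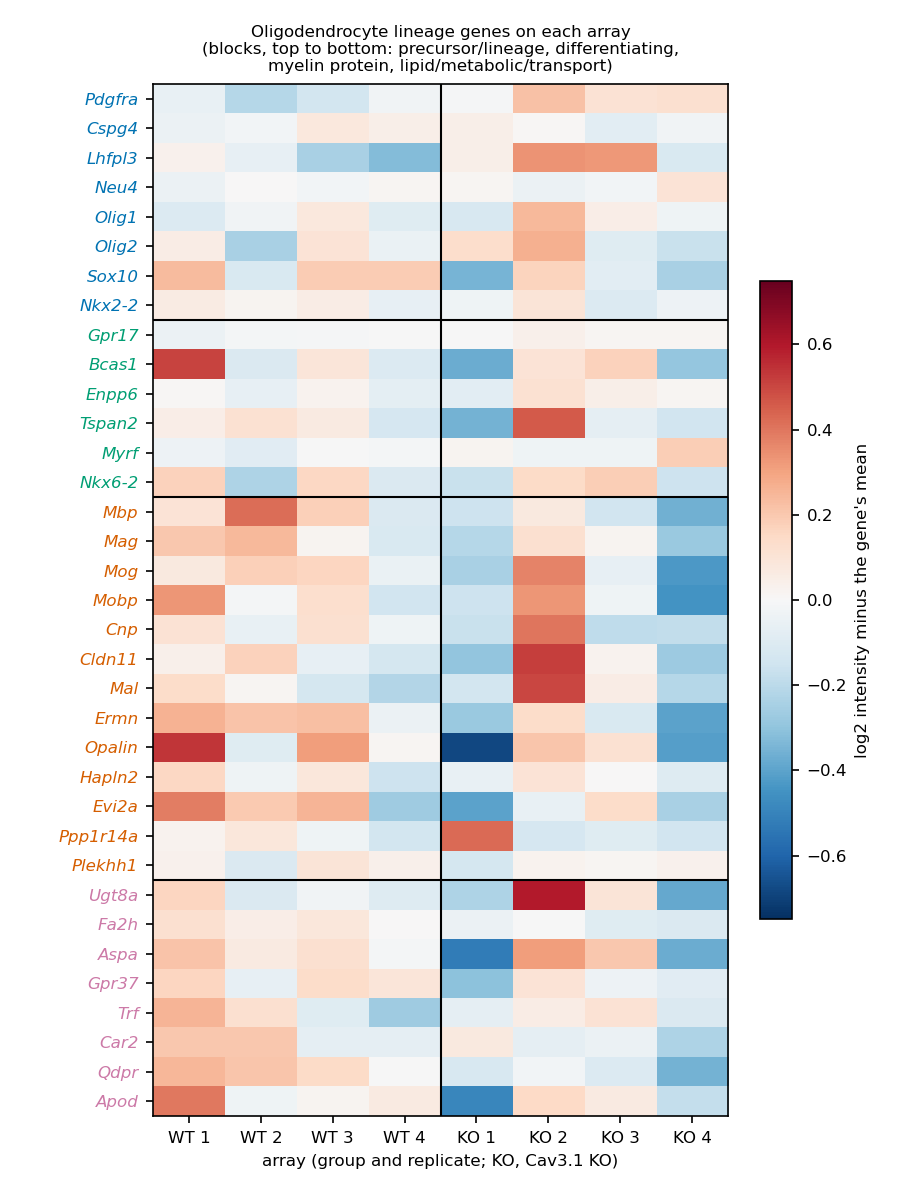
Each row is 1 member and each column 1 array; colour shows the normalized log2 intensity minus that gene's mean over all 8 arrays. In the myelin and lipid blocks WT replicate 1 and Cav3.1 KO replicate 2 are mostly red, and Cav3.1 KO replicates 1 and 4 are mostly blue.

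Among the genes for lipid, metabolism and transport, 7 of 8 were lower in Cav3.1 KO, 0 passed the test, and the median difference was -0.149. Qdpr encodes dihydropteridine reductase, which regenerates tetrahydrobiopterin, and is abundant in but not limited to oligodendrocytes. It read 11.87, 11.83, 11.76 and 11.62 in WT and 11.50, 11.60, 11.52 and 11.27 in Cav3.1 KO. Every Cav3.1 KO array was below every WT array, with WT replicate 4 and Cav3.1 KO replicate 2 nearly level. The difference was -0.30 (SE 0.0806, 95% interval -0.48 to -0.11), or 0.812-fold (exact permutation p 0.0286, limma adjusted p 0.279). It was -0.27 and -0.30 within the steeper and the shallower gain class.

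Fa2h, the fatty acid hydroxylase that makes the hydroxylated galactolipids of myelin, read 6.31, 6.24, 6.27 and 6.19 in WT and 6.15, 6.18, 6.09 and 6.08 in Cav3.1 KO. The groups did not overlap, but their nearest arrays, WT replicate 4 and Cav3.1 KO replicate 2, were nearly level. The difference was -0.12 (SE 0.0364, exact permutation p 0.0286, limma adjusted p 0.335). Its lowest spot was 1.24 times the mean blank spot, and with the mean blank spot subtracted instead of normexp the difference was -0.46 (limma adjusted p 0.362). Ugt8a, the galactosyltransferase that acts after Fa2h in the same pathway, read 10.15, 9.88, 9.96 and 9.90 in WT and 9.76, 10.59, 10.09 and 9.60 in Cav3.1 KO. Its difference of 0.04 (SE 0.195) lay between a Cav3.1 KO array well above and a pair well below all WT arrays.

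Aspa, which releases acetate from N-acetylaspartate for lipid synthesis, read 8.76, 8.61, 8.66 and 8.53 in WT and 8.02, 8.86, 8.75 and 8.17 in Cav3.1 KO. The Cav3.1 KO arrays formed 2 pairs, replicates 2 and 3 at the top of the WT range or above it and replicates 1 and 4 below it, and the difference was -0.19 (SE 0.184). Apod, an apolipoprotein also made by fibroblasts and astrocytes, differed by -0.22 (SE 0.149) and the receptor gene Gpr37 by -0.16 (SE 0.0873). Carbonic anhydrase 2 (Car2) differed by -0.13 (SE 0.0889), and Trf, the iron carrier transferrin that choroid plexus also makes, by -0.01 (SE 0.109). The adjusted p of these 5 genes ran from 0.746 to 0.998.

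**Figure D3:**
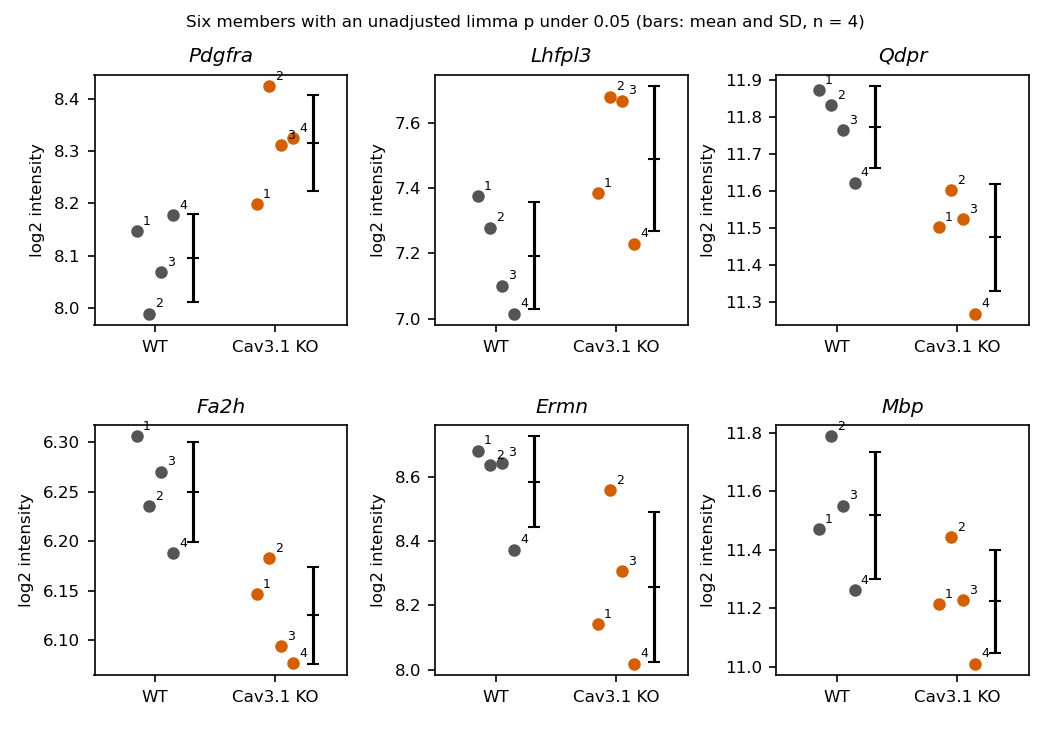
Normalized log2 intensity on each array for the 6 members with an unadjusted limma p under 0.05, with replicate numbers beside the points and the mean and SD of 4 arrays as bars; the vertical axes differ and do not start at 0. Pdgfra, Qdpr and Fa2h separate the groups, and the other 3 overlap.

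Beyond the members, lists of related genes showed 0 calls. Of 26 other oligodendrocyte-enriched genes measured, 18 were lower, 8 higher and 0 passed, with a median of -0.0113. Within it, the aggrecan-cleaving protease gene Adamts4 differed by -0.03 (SE 0.0529) and the connexin gene Gjb1 by -0.07 (SE 0.0506). Of 11 other precursor-enriched genes 7 were lower and 0 passed (median -0.00751), with C1ql1 at 0.05 (SE 0.0415) and the matrilin gene Matn4 at 0.11 (SE 0.105). Of 16 ligands, receptors and brakes of oligodendrocyte development, 10 were lower and 0 passed (median -0.00275). Of 12 genes of axon-glia contact and nodes, 8 were lower and 0 passed (median -0.04), with neurofascin (Nfasc) at 0.01 (SE 0.0377) and contactin (Cntn1) at -0.04 (SE 0.0944). Of 11 further galactolipid and long-chain lipid genes, 5 were lower and 0 passed (median 0.011), with the ceramide synthase gene Cers2 at -0.11 (SE 0.0996) and the sulfotransferase gene Gal3st1, which turns galactocerebroside into sulfatide, at 0.05 (SE 0.07). The genes named here were chosen by their place in the lists, and the smallest limma adjusted p among them was 0.876. Other genes of these lists had smaller values, down to 0.234. Of the 26 other oligodendrocyte-enriched genes, 3 separated the groups with Cav3.1 KO lower (2.53% of all probes) and 0 with Cav3.1 KO higher (2.42%). The lowest spots of those 3 ran from 1.03 to 1.63 times the mean blank spot. Markers of Schwann cells, which myelinate outside the brain, gave 4 higher and 2 lower of 6 measured and 0 calls, with list means between 6.47 and 6.56 on all 8 arrays.

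Many members were high or low on the same arrays. Of the 35, 14 were highest on Cav3.1 KO replicate 2 and 12 on WT replicate 1, while 12 were lowest on Cav3.1 KO replicate 1 and 10 on Cav3.1 KO replicate 4. On WT replicate 1, all 13 myelin protein genes and all 8 lipid, metabolic and transport genes were above their own mean over the arrays. On Cav3.1 KO replicate 4, 1 of the 13 and 0 of the 8 were. The median SD over the members was 0.122 among WT arrays and 0.189 among Cav3.1 KO arrays, where all probes gave 0.0599 and 0.0642. The SD was larger in Cav3.1 KO for 24 of the 35 members (68.6%) and for 54.0% of all probes, and the difference in spread was not tested. For 34 of the 35 members the range among the 4 Cav3.1 KO arrays exceeded the difference between the groups, as it did for 93.1% of all probes.

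Markers of regions next to the dentate gyrus varied across the same arrays. The mean of 14 thalamus and habenula markers was 7.26, 7.32, 6.93 and 6.85 on WT replicates 1 to 4 and 7.08, 7.73, 7.73 and 7.02 on Cav3.1 KO replicates 1 to 4. Among them the habenula receptor gene Gpr151 read 7.64 and 7.53 on Cav3.1 KO replicates 2 and 3, and 6.05 to 6.25 on the other 6 arrays. Not all of the list followed it. Lef1 was highest on WT replicate 1, and Rora, Nwd2, Plekhg1 and Synpo2 on WT replicate 2. Pou4f1 was highest on Cav3.1 KO replicate 1, and the rest of the list on Cav3.1 KO replicate 2 or 3. Slc17a6 was higher on every Cav3.1 KO array than on any WT array (limma adjusted p 0.382). The mean of 7 ependymal markers ran from 6.64 to 7.02 in WT and was 6.43, 7.20, 7.23 and 6.24 in Cav3.1 KO, with Cav3.1 KO replicates 1 and 4 lowest, as for most myelin genes. The mean of 8 choroid plexus markers ran from 7.02 to 8.49 in WT and from 6.28 to 8.33 in Cav3.1 KO, and was lowest on Cav3.1 KO replicate 4. In direction, 12 of 14 thalamus and habenula markers were higher in Cav3.1 KO, 6 of 7 ependymal and 7 of 8 choroid plexus markers lower, and 0 passed the test. The part of tissue borders in the values of the members was not tested.

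**Figure D4:**
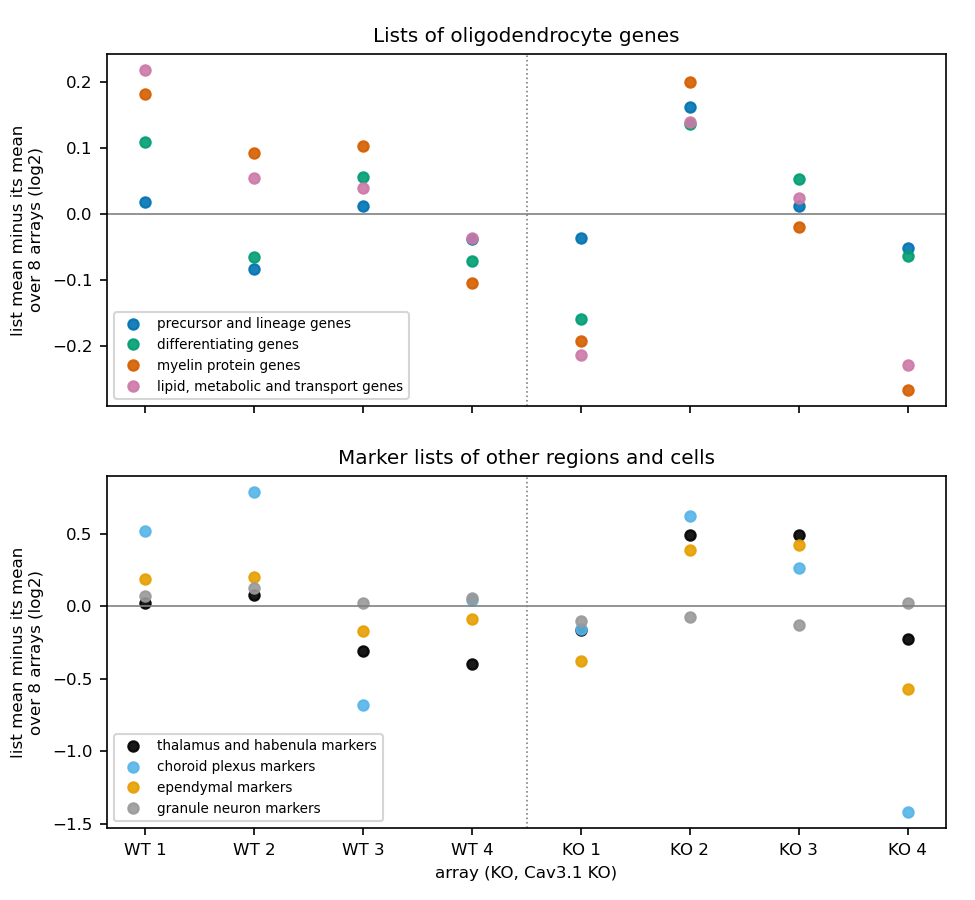
Mean normalized log2 intensity of each list on each array, minus the list's mean over all 8 arrays: the 4 role lists of oligodendrocyte genes above, and marker lists of other regions and of granule neurons below. Cav3.1 KO replicate 2 is high for the myelin list and for thalamus and habenula, and Cav3.1 KO replicate 4 is low for myelin, ependyma and choroid plexus. The lists do not go together on every array. Cav3.1 KO replicate 3 is high for thalamus, habenula and ependyma but near the mean for myelin. WT replicate 3 is above the mean for myelin but low for thalamus and habenula, ependyma and choroid plexus.

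Markers of the principal cells of the tissue were present. All 10 granule neuron markers were tested, 7 were lower in Cav3.1 KO, and 1, C1ql2, passed (-0.57, SE 0.0509, limma adjusted p 0.00653). Their mean lay between 7.23 and 7.33 on WT arrays and between 7.08 and 7.23 on Cav3.1 KO arrays. Of the other glia, 7 of 10 astrocyte markers were higher, with the connexin gene Gjb6 the 1 that passed (0.38, SE 0.0481, adjusted p 0.0271). All 9 measured microglia markers were lower and 0 passed. Of 10 endothelial markers 6 were lower, with the tight junction gene Cldn5 the 1 that passed (-0.79, SE 0.0922, adjusted p 0.0183). Of 9 pericyte markers 5 were lower and 0 passed.

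Cav3.1 KO replicates 2 and 3, the arrays with the highest mean of thalamus and habenula markers, were left out together as a further comparison. In it 31 of the 35 members' differences moved downward. Of 35 members, 28 were then lower, where 50.4% of all probes were, and 7 higher. Before adjustment 19 members had a limma p under 0.05, against 8.86% of all probes in the same fit. After adjustment 0 passed, against 0.0802% of all probes, and the smallest adjusted p was 0.133. The arrays were left out with earlier results known, and the members share arrays on which many are high or low, so these counts are a description. On Cav3.1 KO replicate 2, 28 of the 35 were above their own mean, so leaving it out by itself lowers most differences. Only Cav3.1 KO arrays were left out. Mean thalamus and habenula markers were also higher on WT replicates 1 and 2 than on Cav3.1 KO replicates 1 and 4. The share of all probes that moved downward was not computed. The myelin list's median moved from -0.15 to -0.333 and the lipid list's from -0.149 to -0.285, while the precursor list's was 0.00528. Opalin differed by -0.74 and Aspa by -0.55 in this comparison of 4 WT with 2 Cav3.1 KO arrays, and Pdgfra by 0.17. Without Cav3.1 KO replicate 2 alone there were 28 lower members and a median of -0.144 over all 35.

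**Figure D5:**
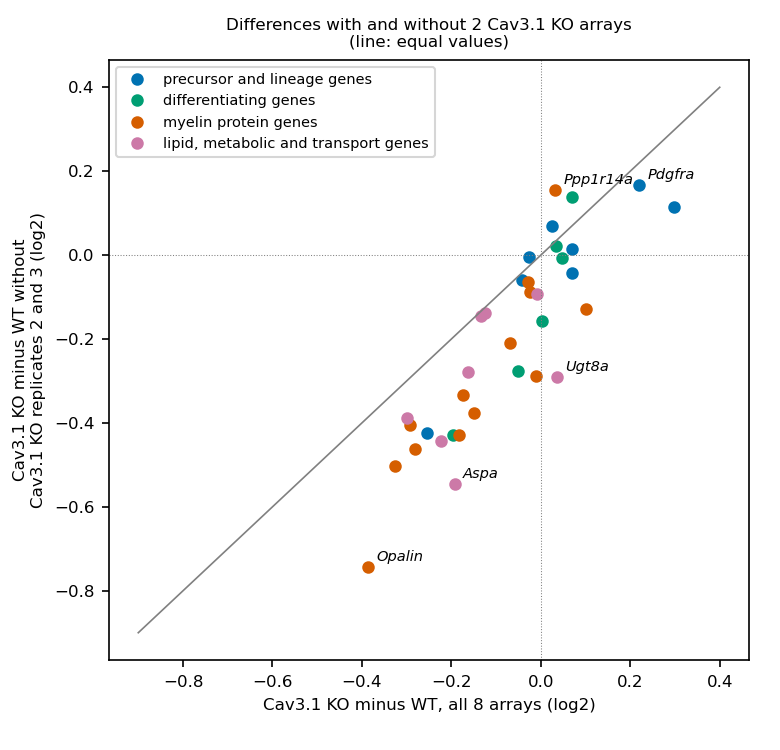
Cav3.1 KO minus WT in normalized log2 intensity for each member with all 8 arrays (horizontal axis) and without Cav3.1 KO replicates 2 and 3 (vertical axis); the line marks equal values. Of 35 points 31 lie below the line, and Opalin is lowest on the vertical axis at -0.74. The arrays left out include Cav3.1 KO replicate 2, on which 14 of the 35 members were highest.

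The myelin list's median took different values in the classes of chips. Among the 6 arrays with the first chip numbers, 3 of each genotype, 8 of 13 myelin genes were lower with a median of -0.0148. Between the remaining arrays, WT replicate 3 and Cav3.1 KO replicate 4, 13 of 13 were lower with a median of -0.304. Within the gain class of 3 WT arrays and 1 Cav3.1 KO array the median was -0.291, and within that of 1 WT and 3 Cav3.1 KO arrays it was -0.112. The lipid list's medians in the same order were -0.113, -0.21, -0.246 and -0.06. Of all members 0 were called between the chip-number classes by limma with genotype in the model, where 0.0141% of all probes were, and 0 between the gain classes, where 0% were. At an unadjusted limma p under 0.05, 2 members (Myrf and Car2) differed between the chip-number classes, where 8.72% of all probes did. Between the gain classes 4 did (Olig1, Enpp6, Ppp1r14a and Plekhh1), where 8.70% of all probes did.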

How the data were processed

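Members and lists were chosen with earlier results of these data known. The authors' deposited files hold scanner intensity per spot, per the file headers, and a deposited value table of normalized signal of unstated scale. Its values entered as log2(value + 5) in 1 alternative. No source used here gives the genome build of the array design. Normexp (offset 50, limma 3.58.1, R 4.3.3) was run on the spot intensities, which were then put on the log2 scale and quantile normalized. Of 23473 probes, 21204 were tested: 2238 were dim (not above the 95th percentile of blank spots on at least 4 arrays) and 31 not good at any gain. Cav3.1 KO and WT were compared by limma (lmFit and eBayes without further covariates; Benjamini-Hochberg adjustment, 0.05) and with two-sided exact permutation tests. The number of arrays limits the precision, and the offset of 50 in normexp compresses the differences of dim probes. All members were named; from other lists, genes that passed were named, or else the first measured pair. Gpr151 and the thalamus and habenula markers named with it were singled out after their values were seen, and Prox1 was named for its dim probe. Alternatives changed background, normalization, filter, probe choice, blocks and arrays. The calculation was tested on simulated data.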

Additional observations from a re-analysis of the deposited data

Results flagged for a closer look

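Of 70 groups of 4 arrays examined (35 members in each genotype), 5 held an array far from the other 3 by Dixon's criterion, where chance gives about 1 in 20. Sox10 read 7.78 on WT replicate 2 and 8.08 to 8.13 on the other WT arrays. Ermn read 8.37 on WT replicate 4, against 8.64 to 8.68. Cnp read 11.24 on Cav3.1 KO replicate 2, against 10.65 to 10.67 on the other Cav3.1 KO arrays. On Cav3.1 KO replicate 1, Ppp1r14a read 8.98 against 8.41 to 8.46, and Plekhh1 read 6.10 against 6.25 to 6.27.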

How the results depend on the processing

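Under all 23 alternatives 0 of 35 members were called. Both filters on dim probes, the chip-number and replicate blocks and the intensity trend, 5 alternatives, left every member's difference as it was. They could not change it, so this is no sign of robustness. Both blocks were evenly divided between the genotypes, and the filters and the trend do not enter a member's difference. Under the other 18, 571 differences kept their sign and 59 did not. With the authors' value table the median was -0.129 over members and -0.272 over lipid genes, with Nkx6-2 at -0.0509, Mal at -0.00315, Ppp1r14a at -0.0294 and Ugt8a at -0.0642. The median over all probes was also lower with that value table, at -0.0457 against -0.000775 in the main fit. Mal and Ppp1r14a lay above that median, so their change of sign is not a shift against the other probes. Without Cav3.1 KO replicates 2 and 3 the medians were -0.158 (members), 0.00528 (precursor), -0.0823 (differentiating), -0.333 (myelin) and -0.285 (lipid), with Olig1 at -0.0435, Enpp6 at -0.00655, Nkx6-2 at -0.16, Mal at -0.13 and Ugt8a at -0.29. Blank subtraction gave medians of 0.0831 (precursor) and 0.096 (differentiating). Median centring gave Nkx6-2 -0.0151, Ppp1r14a -0.0191 and Ugt8a -0.0519. Gain class, examined after seeing the data, gave as a block medians of 0.0038 (precursor) and -0.054 (differentiating), with Olig1 -0.0202, Enpp6 -0.00227, Nkx6-2 -0.106, Ugt8a -0.0447 and Trf 0.00205. Within the shallower class the precursor median was -0.0318, with Olig2 -0.10, Tspan2 0.0144, Nkx6-2 -0.10, Cldn11 0.15, Ppp1r14a -0.0852 and Trf 0.105. Within the steeper class medians were -0.074 (differentiating), -0.291 (myelin) and -0.246 (lipid), with Cspg4 0.0539, Olig1 -0.0497, Enpp6 -0.0375, Nkx6-2 -0.11, Mal -0.12 and Ugt8a -0.22. The first chip numbers alone gave a myelin median of -0.0148, with Cspg4 1.68e-08, Neu4 -0.00823, Tspan2 0.00158, Cnp 0.00842, Cldn11 0.0567 and Hapln2 0.026. The cause of these shifts was not tested.

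Leaving out each array in turn gave medians from -0.144 to -0.021 (members), -0.00541 to 0.0637 (precursor), -0.0127 to 0.058 (differentiating), -0.243 to -0.0425 (myelin) and -0.19 to -0.093 (lipid). Single members that crossed 0 ranged from -0.00512 to 0.0437 (Neu4), -0.00138 to 0.121 (Olig1), -0.00944 to 0.137 (Olig2), -0.214 to 0.0578 (Tspan2), -0.0731 to 0.0615 (Nkx6-2), -0.185 to 0.086 (Cldn11), -0.0507 to 0.189 (Mal), -0.0817 to 0.0217 (Hapln2), -0.104 to 0.0861 (Ppp1r14a), -0.0694 to 0.0116 (Plekhh1), -0.157 to 0.17 (Ugt8a) and -0.0983 to 0.0741 (Trf). The adjusted p ranged over the alternatives from 0.175 to 0.854 for Pdgfra, 0.17 to 0.792 for Qdpr, 0.311 to 0.777 for Fa2h, 0.129 to 0.925 for Mbp and 0.217 to 0.886 for Ermn. Over all probes, 61 were called, against 36 with median centring, 83 with an intensity trend, 23 with gain class as a block, 17 without Cav3.1 KO replicates 2 and 3, 7 among the first chip numbers, 0 within either gain class and 16 to 49 without single arrays. Same-numbered arrays did not deviate together (r -0.111 to 0.0117), so the replicate numbers were not taken as pairs. With the replicate block 0 members were called, the members' median, which this block cannot change, was -0.0416, and 8 probes were called. Probes near the blank level, such as Gpr17, limit what can be seen of dim members.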
